A study of Homo sapiens with 16 samples.

Results

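The 35 genes described here belong to glycolysis and to the transcriptional response to low oxygen. They comprise 2 glucose transporters, 17 glycolytic enzymes with the lactate dehydrogenases counted among them, 5 genes of glycolytic control and lactate transport, 10 other hypoxia targets, and HIF1A, the oxygen-regulated subunit of the transcription factor HIF-1. They were taken by symbol through their Ensembl IDs, from a list drawn up with earlier results of these data known, and all 35 were found among the 28951 genes of the table. All 35 also passed the filter on low values, although CA12 had 0 reads in every H1703 and H441 library and passed through its level in H460. CA9, with fewer reads in the other lines, passed through its level in H441.

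Glycolysis splits glucose into pyruvate, and lactate dehydrogenase turns pyruvate into lactate, which leaves the cell through monocarboxylate transporters. At low oxygen the HIF1A protein escapes hydroxylation by the EGLN enzymes, pairs with ARNT and binds short DNA elements with the core ACGTG or GCGTG. Its targets include most glycolytic enzymes, glucose transporters, the angiogenic factor VEGFA and the carbonic anhydrases CA9 and CA12. MYC binds the overlapping element CACGTG, and many glycolysis genes, LDHA among them, are also MYC targets. HIF1A is controlled mainly at the protein level, which RNA sequencing does not show.

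The cells were 4 established lines of human non-small cell lung cancer, whose total RNA was sequenced. In the study's design the responsive lines are H460 and H1703, and the non-responsive ones are HCC827 and H441. Each line received DMSO (vehicle) or, for 48 h, 5 µM MYCi975, a MYC inhibitor, together with 25 µM TMP195, an inhibitor of class IIa histone deacetylases. The single agents were not analysed here, the labels name no low-oxygen culture, and each of the 8 groups held 2 libraries. The labels do not say whether the 2 came from separate cultures, so p-values measure only the spread between these libraries, which may be technical.

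Depth was 8493271 to 13604150 reads in listed genes. The summed level of 5 epithelial markers (EPCAM, CDH1, KRT8, KRT18, KRT19) was 225 to 261 normalised reads in H1703 and 27728 to 77816 in the other lines, so H1703 had little of them. The alveolar markers NKX2-1, SFTPB and NAPSA summed to at most 18.1 in H460 and H1703 and to 434 to 2837 in HCC827 and H441. Markers of blood, endothelial and liver cells summed to at most 20.5 normalised reads in any library, and at least 6 of the 8 were at 0 reads or without a row in every group. The mitochondrial ribosomal RNA MT-RNR2 took 10.4 to 14.3% of reads in the vehicle libraries of the responsive lines and 13.6 to 15.9% with the combination. In HCC827 it took 19.7 and 21.0% in vehicle and 17.1 and 15.7% with the combination. Its part in the changes below was not tested.

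The promoters of 4 genes are shown because they carry the main results: LDHA fell in every line, PGK1 fell in 3 lines, and HK2 and ENO2 rose in H1703 where most enzymes fell. Each sequence shown is the 250 bases before a RefSeq start site (GRCh38.p14, plus strand), at chr11:18394313-18394562 for LDHA, chrX:78103998-78104247 for PGK1, chr2:74834920-74835169 for HK2 and chr12:6914330-6914579 for ENO2. Capitals mark ACGTG on either strand, which reads CACGT on the other strand and merges with it in CACGTG. For LDHA and HK2, which each have 2 start sites in the table, the window with more matches is shown.
LDHA: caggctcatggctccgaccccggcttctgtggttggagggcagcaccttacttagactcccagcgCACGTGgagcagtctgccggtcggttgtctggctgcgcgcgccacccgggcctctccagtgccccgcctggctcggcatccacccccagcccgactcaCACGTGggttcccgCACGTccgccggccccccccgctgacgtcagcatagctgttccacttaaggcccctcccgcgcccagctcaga
PGK1: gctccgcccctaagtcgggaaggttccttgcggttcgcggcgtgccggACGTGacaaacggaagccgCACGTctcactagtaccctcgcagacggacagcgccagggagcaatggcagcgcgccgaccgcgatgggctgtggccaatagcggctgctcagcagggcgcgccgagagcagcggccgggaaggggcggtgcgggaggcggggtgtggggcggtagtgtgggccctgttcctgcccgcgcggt
HK2: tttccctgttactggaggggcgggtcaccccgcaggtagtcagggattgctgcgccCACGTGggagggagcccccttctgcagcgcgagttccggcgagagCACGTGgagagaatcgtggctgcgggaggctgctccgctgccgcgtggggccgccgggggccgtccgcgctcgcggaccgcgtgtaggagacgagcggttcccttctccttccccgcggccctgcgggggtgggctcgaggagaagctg
ENO2: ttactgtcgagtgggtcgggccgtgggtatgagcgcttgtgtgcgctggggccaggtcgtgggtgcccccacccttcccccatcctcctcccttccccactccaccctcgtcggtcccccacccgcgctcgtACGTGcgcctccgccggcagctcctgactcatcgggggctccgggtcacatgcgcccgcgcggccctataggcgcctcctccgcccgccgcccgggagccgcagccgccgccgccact
The LDHA and HK2 windows each held CACGTG at 2 places, and those of PGK1 and ENO2 held none. RefSeq windows of 300 bases (250 before and 50 after the start) were on hand for 30 of the 35 genes, 57 windows in all, and both strands were searched. ACGTG stood in 22 of the 57 (38.6%) and in 21.4% of all 35116 such windows. GCGTG stood in 23 of the 57 (40.4%) against 36.5% of all, and CACGTG, which contains ACGTG, in 8 (14.0%) against 7.26%. Of the glycolytic enzymes, 11 of 17 had ACGTG in a window, and ENO1, HK1, LDHB, PFKL, PGAM1 and PKM did not. ENO1, PGAM1 and PKM, without a match, fell in the same lines as PGK1. By window, ACGTG stood in 15 of the 37 enzyme windows (40.5%), to be read against the 21.4% of all windows. A gene with several windows has more places for a match, and the share by gene was not computed over all genes. A match is a string of letters and was not tested as a binding site.

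In vehicle the 4 lines already differed. All 35 genes differed among the lines (limma F test of the 4 vehicle means, adjusted p under the threshold of 0.05 here and throughout), where 73.4% of all 23968 tested genes did. For CA12 and CA9, which passed the filter through their levels in H460 and H441 respectively, the difference follows from that filter. Between the classes, 8 of the 35 were higher and 22 lower in the responsive lines, against 28.8 and 27.6% of all genes (56.3% together). Levels between genes are compared as normalised reads (reads divided by the library's size factor) per kb of exon. GAPDH was highest, at 9508 to 11405 per kb by line, followed by ENO1 with 2246 to 4443.
H1703 had the lowest mean level of the 4 lines for LDHA, the lactate-forming dehydrogenase subunit, at 445 ± 13.3 (SD, n = 2) normalised reads per kb against 2349 ± 50.2 in H460. PKM, the pyruvate kinase gene, was at 753 ± 16 in H1703 and 2037 ± 96.2 in H460. The transporter SLC2A1 (GLUT1) was at 6.21 ± 0.031 per kb in H1703, 342 ± 21.4 in H460, 345 ± 29.8 in HCC827 and 420.2 ± 12.8 in H441. SLC2A3 (GLUT3) was highest in H460 with 280.2 ± 83.8 and lowest in H441 with 1.95 ± 0.23. HIF1A was higher in the non-responsive lines, at 1496 ± 7.7 in HCC827 and 1267 ± 64.6 in H441, than in H460 (361 ± 12.7) and H1703 (262 ± 0.3). The fitted class difference was -2.16 ± 0.05, adjusted p = 6.37e-18 on the log2 scale. For SLC2A1 it was -2.98 ± 0.07, adjusted p = 2.56e-18, which comes from the low H1703 level, as H460 lay close to HCC827. For NDRG1, a stress- and hypoxia-induced gene, it was -2.99 ± 0.12, adjusted p = 1.43e-13. SLC2A3 was on the other side, at 5.03 ± 0.24, adjusted p = 1.31e-09.

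**Figure D1:**
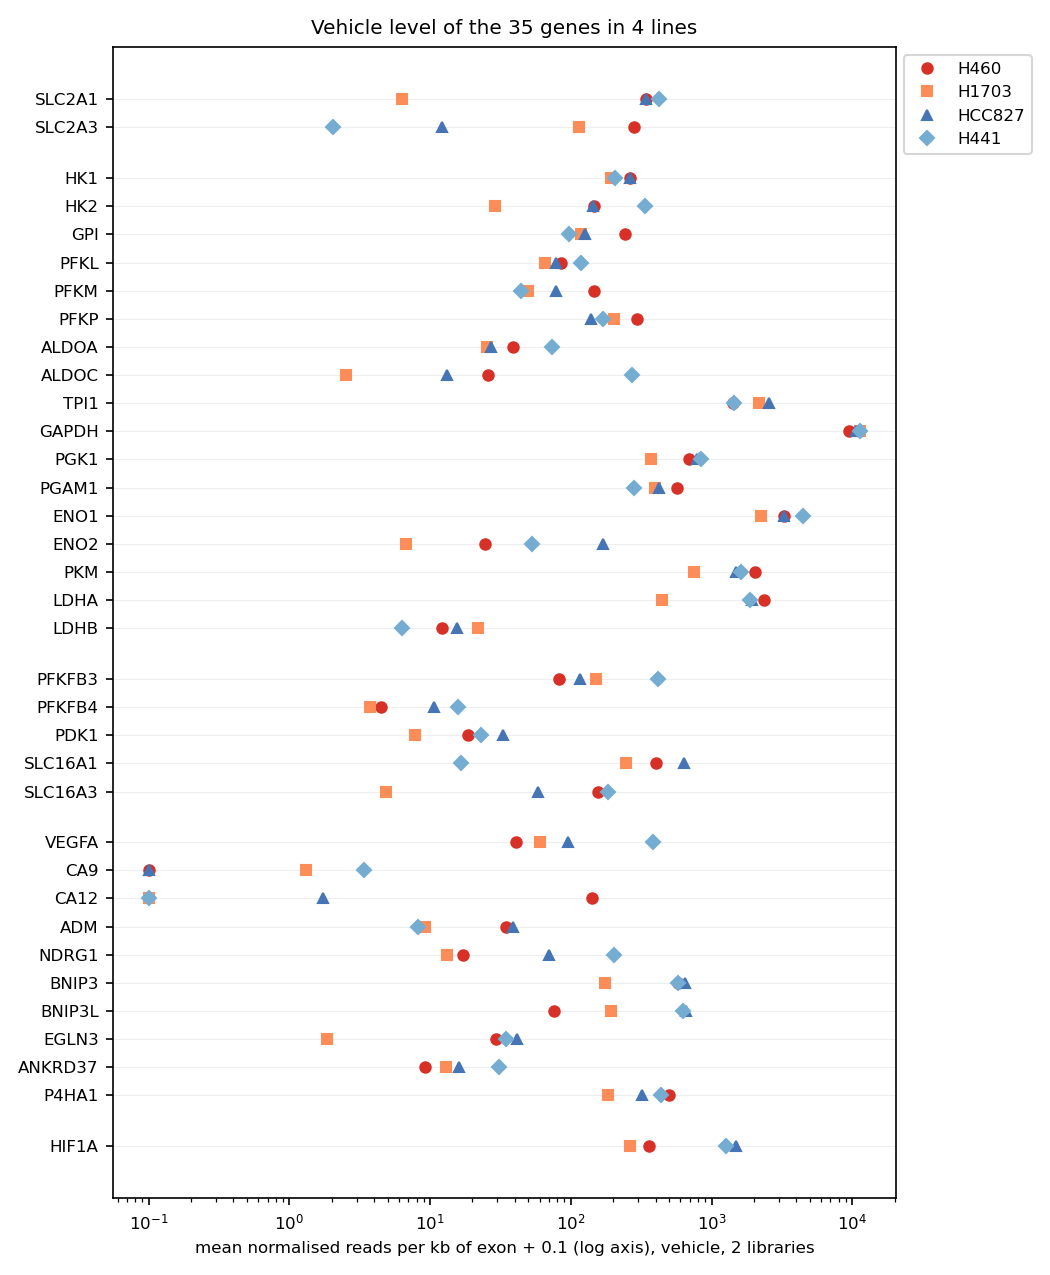
Mean vehicle level of each of the 35 genes in the 4 lines, in normalised reads per kb of exon plus 0.1 on a log axis, with 2 libraries per point. H1703 lies to the left for SLC2A1, HK2, ENO2, LDHA, SLC16A3 and EGLN3, and CA9 and CA12 sit at the left edge in 2 lines each, with 0 reads.

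With the combination, more glycolytic enzymes fell than rose in H460, H1703 and HCC827, most of all in H1703. In H441 only LDHA fell, and that call did not pass without any 1 of that line's libraries. A change is the combination mean less the vehicle mean in log2 units, given ± its standard error from the fit, and a gene is said to rise or fall where its adjusted p (limma, Benjamini-Hochberg over all tested genes) passed. In H460, 7 of the 35 rose and 12 fell, where 26.7% of all tested genes passed, 14.1% rising and 12.6% falling. In H1703, 10 rose and 16 fell, against 17.9 and 17.6% (35.5% in all). HCC827 had 3 rises and 10 falls, against 4.42 and 5.5% (9.92% in all), and H441 had 1 rise and 3 falls, against 2.77 and 1.86% (4.63% in all). Abundant genes are called more often: of the 9869 genes with a mean of at least 100 normalised reads, which include 30 of the 35, 23.7% rose and 25.5% fell in H460, and 25.2% rose and 35.5% fell in H1703. In HCC827 8.6% of them rose and 11.7% fell, and in H441 5.93% rose and 3.32% fell. Of the 35, 6 genes (HK1, PFKP, LDHB, CA9, CA12 and ANKRD37) passed in no line, against 52.1% of all genes. Shares for this and other patterns over several lines were not computed for abundant genes alone.
Among the 17 enzymes, 8 fell and 1 rose in H460 with a median change of -0.43. In H1703, 11 fell and 2 rose, with a median of -0.89. In HCC827, 8 fell and 1 rose (median -0.32), and in H441 1 fell and none rose (median -0.09). The median change of all tested genes was 0.05 in H460, 0.08 in H1703 and 0 in HCC827 and H441. The 17 enzymes together took 0.709 and 0.725% of reads in the H1703 vehicle libraries and 0.349 and 0.380% with the combination. In H460 they took 0.890 and 0.901% in vehicle and 0.696 and 0.695% with the combination. Centring each library on its own median moved the median change of all genes to -0.15 in H460 and -0.16 in H1703, the enzyme medians to -0.62 and -1.13, and the members' rises and falls to 6 and 15 in H460 and 6 and 19 in H1703. In these bulk libraries, fewer cells of a kind and less RNA per cell cannot be told apart. Of all calls, the share that rose was 52.7% in H460 and 50.4% in H1703, and 32.6 and 31.1% after centring.
The count in H441 is the least firm. It was 7 without either H460 combination library, 2 without either H441 vehicle library and 1 without either H441 combination library. In HCC827 the 13 calls became 7 without combination replicate 2. Over the 4 lines, 19 calls were lost without the trend and robust steps of limma and 14 with only 1 line fitted.

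**Figure D2:**
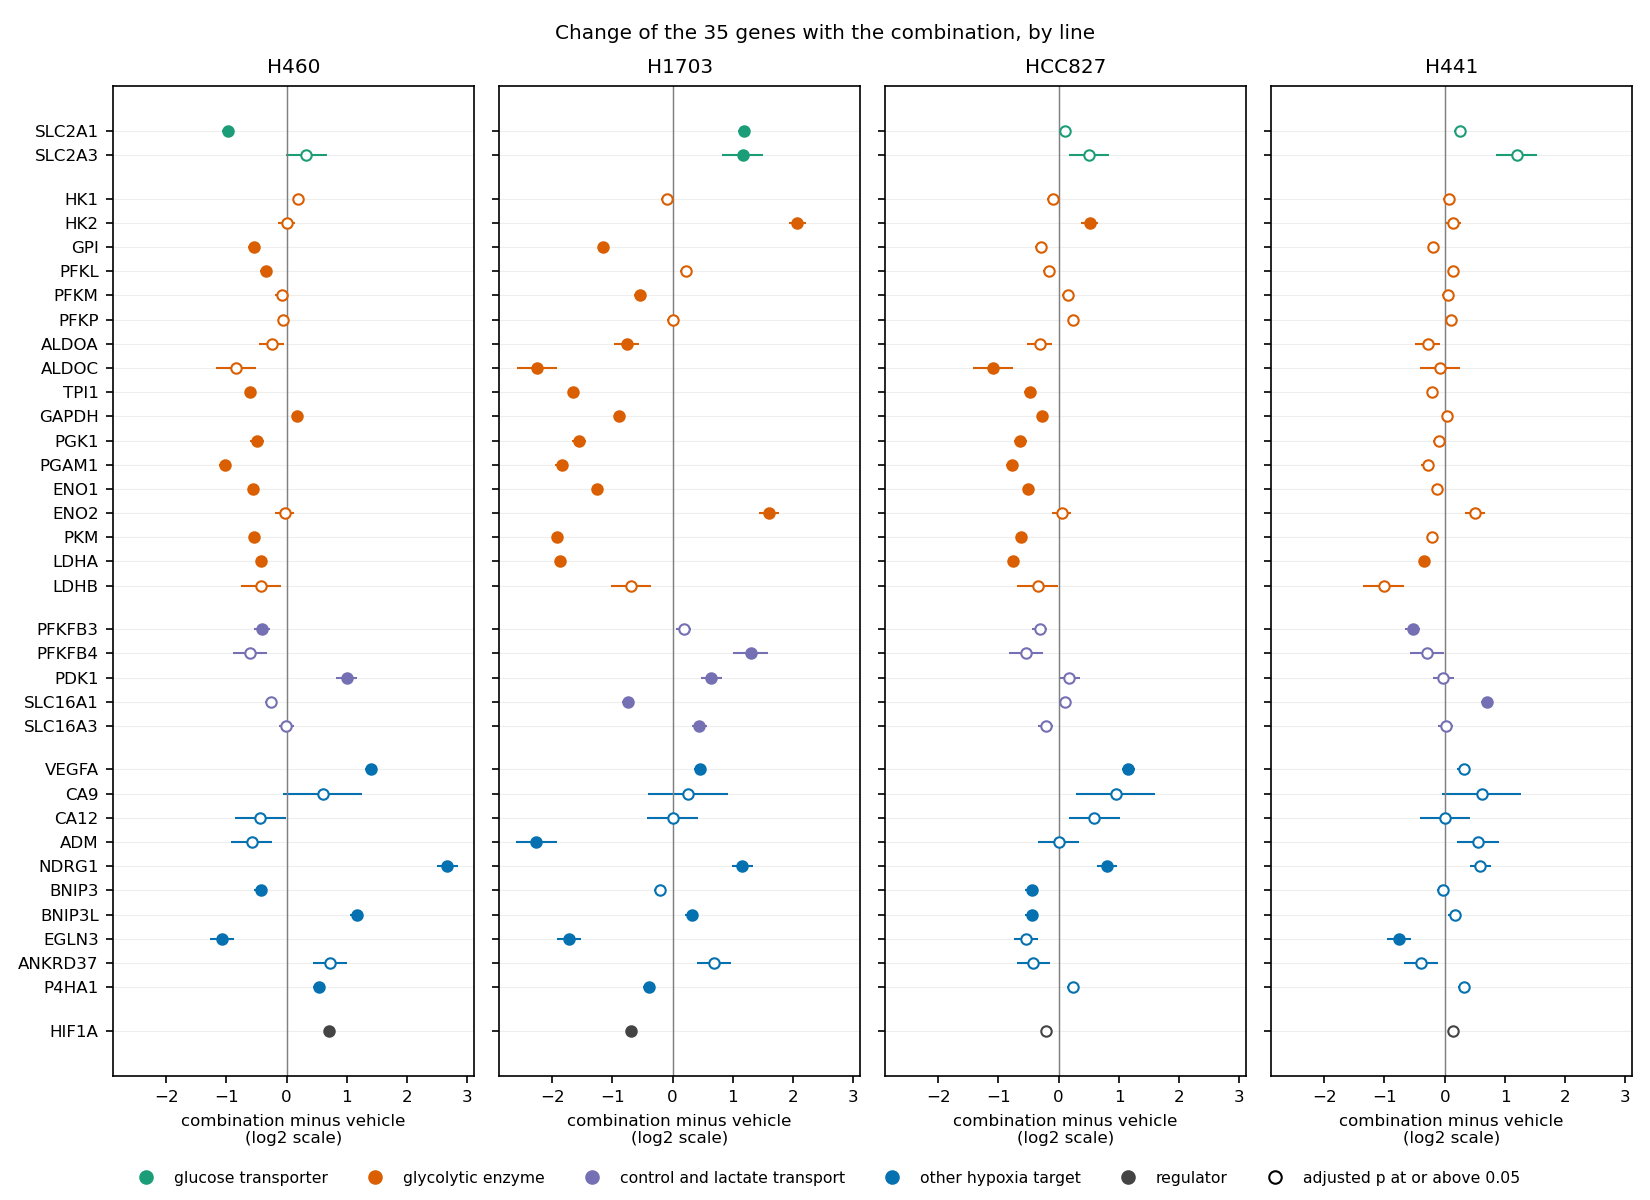
Change of each gene with the combination in the 4 lines (log2 scale, combination minus vehicle), with bars of 1 standard error of the fit. Filled points passed the threshold and open points did not; the run of filled orange points below 0 from TPI1 to LDHA in H460, H1703 and HCC827 is broken by GAPDH in H460 and by ENO2.

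The glucose transporter SLC2A1 moved in opposite directions in the 2 responsive lines. Its vehicle levels, in normalised reads, were 1545 and 1687 in H460, 29.2 and 29.4 in H1703, 1728 and 1529 in HCC827, and 2028 and 1942 in H441. With the combination SLC2A1 had 863 and 773 in H460, 66.4 and 73.3 in H1703, 1770.4 and 1734 in HCC827, and 2319 and 2399 in H441. The libraries of H460 and H1703 did not overlap between treatments and moved apart, the level falling in the line that had much of it and rising in the line that had little. SLC2A1 fell by 0.98 ± 0.09 in H460 (adjusted p = 9.62e-08) and rose by 1.18 ± 0.09, adjusted p = 5.10e-09 in H1703. The difference between these responses was -2.16 ± 0.13, adjusted p = 9.64e-10. Even after its rise, SLC2A1 in H1703 stayed at 14.8 ± 1.0 normalised reads per kb, below every group of the other lines.
SLC2A3, which has a high affinity for glucose, had vehicle levels of 1361 and 2091 in H460, 728 and 679 in H1703, 64.2 and 85.1 in HCC827, and 11 and 13 in H441. With the combination its levels were 1447 and 3097 in H460, 1388 and 1786 in H1703, 120.0 and 93.1 in HCC827, and 24.2 and 39 in H441. The H460 libraries overlapped and spread widely, and in the other lines both combination libraries were above. It rose in H1703 (1.16 ± 0.33, adjusted p = 0.017), a call that did not pass without vehicle replicate 1 (adjusted p = 0.0527) or 2 (0.0731) or combination replicate 2 (0.0913). In H441 the change was as large, 1.19 ± 0.33, adjusted p = 0.0693, and did not pass. SLC2A1 made up 55.5 ± 5.9% (SD, n = 2) of the normalised reads per kb of the pair in H460 vehicle and 34.1 ± 13.6% with the combination. It made up 5.16 ± 0.26% in H1703 vehicle and at least 95.1% in each HCC827 and H441 library.
Hexokinases make glucose 6-phosphate. HK2, the inducible form, had vehicle levels, in normalised reads, of 833 and 929 in H460, 191 and 161 in H1703, 916 and 838 in HCC827, and 2198 and 1905 in H441. With the combination HK2 had 715 and 1084 in H460, 766 and 723 in H1703, 1333 and 1184 in HCC827, and 2282 and 2217 in H441. In H1703 both combination libraries lay far above both vehicle libraries, in HCC827 and H441 they lay above by less, and in H460 the groups overlapped. HK2 rose in H1703 (2.07 ± 0.14, adjusted p = 5.28e-10) and HCC827 (0.52 ± 0.14, adjusted p = 0.0209), while the change was 0.00 ± 0.14 in H460 and 0.14 ± 0.14 in H441. The HCC827 call did not pass without any 1 of that line's 4 libraries (adjusted p = 0.0607 to 0.159). HK1, the housekeeping form, changed by 0.19 ± 0.09, -0.10 ± 0.09, -0.10 ± 0.09 and 0.07 ± 0.09 in the same order of lines and passed in none. The HK2 share of the pair went from 13 ± 0.5 to 40.6 ± 2.9% in H1703 and from 35.4 ± 0.11 to 45.7 ± 0.38% in HCC827.

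The upper part of glycolysis changed unevenly. GPI, which converts glucose 6-phosphate to fructose 6-phosphate, fell in H460 (-0.55 ± 0.09) and H1703 (-1.15 ± 0.09), with changes of -0.30 ± 0.09, adjusted p = 0.0516 in HCC827 and -0.19 ± 0.09 in H441. Of the 3 phosphofructokinases, which commit sugar to glycolysis, PFKL fell in H460 (-0.35 ± 0.09, adjusted p = 0.00788, or 0.0571 without vehicle replicate 1) and PFKM fell in H1703 (-0.55 ± 0.10, adjusted p = 0.00029). PFKP, which gave the largest share of the 3 in every group (46.9 ± 1.6% in HCC827 vehicle to 64.9 ± 2.5% in H1703 with the combination), passed in no line.
Aldolase C, encoded by ALDOC, had vehicle levels, in normalised reads, of 80.2 and 70.8 in H460, 7.79 and 6.31 in H1703, 29.1 and 47.6 in HCC827, and 712 and 877 in H441. With the combination it had 29.6 and 55.9 in H460, 0 and 0.788 in H1703, 16.5 and 15.7 in HCC827, and 691 and 802 in H441. H441 held far more than the other lines and its groups overlapped, while in the other lines both combination libraries were below. The gene fell in H1703, where 17 reads in vehicle stood against 1 with the combination (ratio 15.2, 95% counting interval 2.37 to 633). In HCC827 it fell by 1.09 ± 0.33 (adjusted p = 0.0411), a call lost without any of 10 of the 16 libraries, with a largest adjusted p of 0.325 without vehicle replicate 2. ALDOA, the muscle form, had only 2338 reads over all 16 libraries, and 42.3% of its GENCODE 29 exon bases are shared with AC093512.2 on the same strand. The antisense gene AC093512.1, which overlaps 13.3%, had 2122 reads, so the level of ALDOA is uncertain. Its fall in H1703 (-0.76 ± 0.20, adjusted p = 0.00604) became -0.36 with adjusted p = 0.199 without combination replicate 1. ALDOC took 78.4 ± 4.6% of the aldolase pair in H441 vehicle and 8.73 ± 1.4% in H1703 vehicle.

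In the lower part, from triose phosphate to lactate, TPI1, PGK1, PGAM1, ENO1, PKM and LDHA each fell in H460, H1703 and HCC827, and each had its largest fall in H1703. TPI1, which interconverts the triose phosphates, changed by -0.61 ± 0.09, -1.66 ± 0.09, -0.48 ± 0.09 and -0.21 ± 0.09 in H460, H1703, HCC827 and H441. PGK1, which makes ATP from 1,3-bisphosphoglycerate, changed by -0.49 ± 0.11, -1.55 ± 0.11, -0.63 ± 0.11 and -0.09 ± 0.11. Without the trend and robust steps PGK1 did not pass in H460 (adjusted p = 0.0519) or HCC827 (0.0536) and TPI1 did not pass in HCC827 (0.0566), and with only that line fitted PGK1 did not pass in HCC827 (0.0878).
PGAM1, the phosphoglycerate mutase, had vehicle levels, in normalised reads, of 1496 and 1434 in H460, 971 and 1065 in H1703, 1184 and 991 in HCC827, and 734 and 720.5 in H441. With the combination PGAM1 had 705 and 732 in H460, 261 and 304 in H1703, 682 and 586 in HCC827, and 600.4 and 596 in H441. All 4 lines had both combination libraries below both vehicle libraries, and the ratio to vehicle was lowest in H1703. PGAM1 fell in H460 (-1.03 ± 0.10, adjusted p = 2.14e-07), H1703 (-1.84 ± 0.10, adjusted p = 4.41e-11) and HCC827 (-0.77 ± 0.10, adjusted p = 5.54e-05), and the change in H441 was -0.28 ± 0.10, adjusted p = 0.141.
PKM had vehicle levels, in normalised reads, of 18041 and 16876 in H460, 6353 and 6547 in H1703, 13526 and 12016 in HCC827, and 13907 and 13843 in H441. Under the combination the PKM values were 12016 and 11959 in H460, 1583 and 1841 in H1703, 8323 and 8149.7 in HCC827, and 11544 and 12316 in H441. No line overlapped, and H1703, which began lowest, ended far below the rest. The changes were -0.54 ± 0.07, adjusted p = 4.41e-06 in H460, -1.92 ± 0.07, adjusted p = 1.22e-13 in H1703, -0.63 ± 0.07, adjusted p = 5.27e-06 in HCC827 and -0.22 ± 0.07, adjusted p = 0.0792 in H441.
LDHA had vehicle levels, in normalised reads, of 14809 and 14368 in H460, 2824 and 2708 in H1703, 13211 and 10852 in HCC827, and 12076 and 11192 in H441. With the combination LDHA had 10786 and 10860.2 in H460, 795 and 716 in H1703, 7618 and 6650.2 in HCC827, and 9236 and 9108 in H441. In every line both combination libraries lay below both vehicle libraries. LDHA fell in H460 (-0.43 ± 0.08, adjusted p = 0.000409), H1703 (-1.87 ± 0.08, adjusted p = 1.28e-12), HCC827 (-0.75 ± 0.08, adjusted p = 5.00e-06) and H441 (-0.34 ± 0.08, adjusted p = 0.0186). It was the only 1 of the 35 that passed in all 4 lines (2.86%, against 0.889% of all genes in one direction, 0.384% falling and 0.505% rising). The H441 call did not pass without any 1 of that line's libraries (adjusted p = 0.0537 to 0.188) or after median centring (-0.33, adjusted p = 0.0697). LDHB, the partner subunit, had 581 reads over the 16 libraries and passed in no line, with changes of -0.43 ± 0.34, -0.69 ± 0.34, -0.35 ± 0.34 and -1.01 ± 0.34. LDHA kept at least 88.1% of the pair's normalised reads per kb in every library. The share rests on that low LDHB count, and whether the counting lost reads of LDHB was not tested.
GAPDH, the triose phosphate dehydrogenase and a common reference gene, had vehicle levels, in normalised reads, of 27519 and 29168 in H460, 33483 and 34514 in H1703, 32861 and 30142 in HCC827, and 34880.3 and 32831 in H441. With the combination GAPDH had 30483 and 33098 in H460, 17852 and 18897 in H1703, 26765 and 25468 in HCC827, and 34319 and 34969 in H441. Both H460 combination libraries were above both vehicle libraries, both H1703 and HCC827 ones were below, and in H441 they overlapped. GAPDH rose by 0.16 ± 0.06, adjusted p = 0.0311 in H460 and fell in H1703 (-0.89 ± 0.06, adjusted p = 1.60e-10) and HCC827 (-0.27 ± 0.06, adjusted p = 0.0031). The H460 value turned to -0.029 after median centring and -0.026 after quantile normalisation, and its call was lost without vehicle replicate 1 (adjusted p = 0.250) or combination replicate 2 (0.245). The HCC827 call was lost without vehicle replicate 1 (adjusted p = 0.0804) or combination replicate 2 (0.0614). An antisense gene, AC006064.4, overlaps 14.2% of the GAPDH exon bases, had 145035 reads against 489830 for GAPDH, and cannot be told apart from it without the strand setting of the counting.
Enolase makes phosphoenolpyruvate. ENO1, the main form, changed by -0.56 ± 0.06, -1.26 ± 0.06, -0.51 ± 0.06 and -0.13 ± 0.06, and ENO2, the neuronal form, went the other way in H1703. ENO2 had vehicle levels, in normalised reads, of 93.9 and 116 in H460, 26.3 and 30.8 in H1703, 791 and 663 in HCC827, and 252 and 203 in H441. With the combination ENO2 had 90.7 and 115 in H460, 88.2 and 95.4 in H1703, 790.5 and 710.1 in HCC827, and 328 and 313 in H441. In H1703 and H441 both combination libraries were above both vehicle ones, with the higher ratio in H1703, while the H460 and HCC827 groups overlapped. ENO2 rose in H1703 (1.6 ± 0.16, adjusted p = 1.36e-07), and the change was 0.50 ± 0.16, adjusted p = 0.086 in H441. Its share of the enolase pair went from 0.297 ± 0.044 to 2.23 ± 0.14% in H1703.

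**Figure D3:**
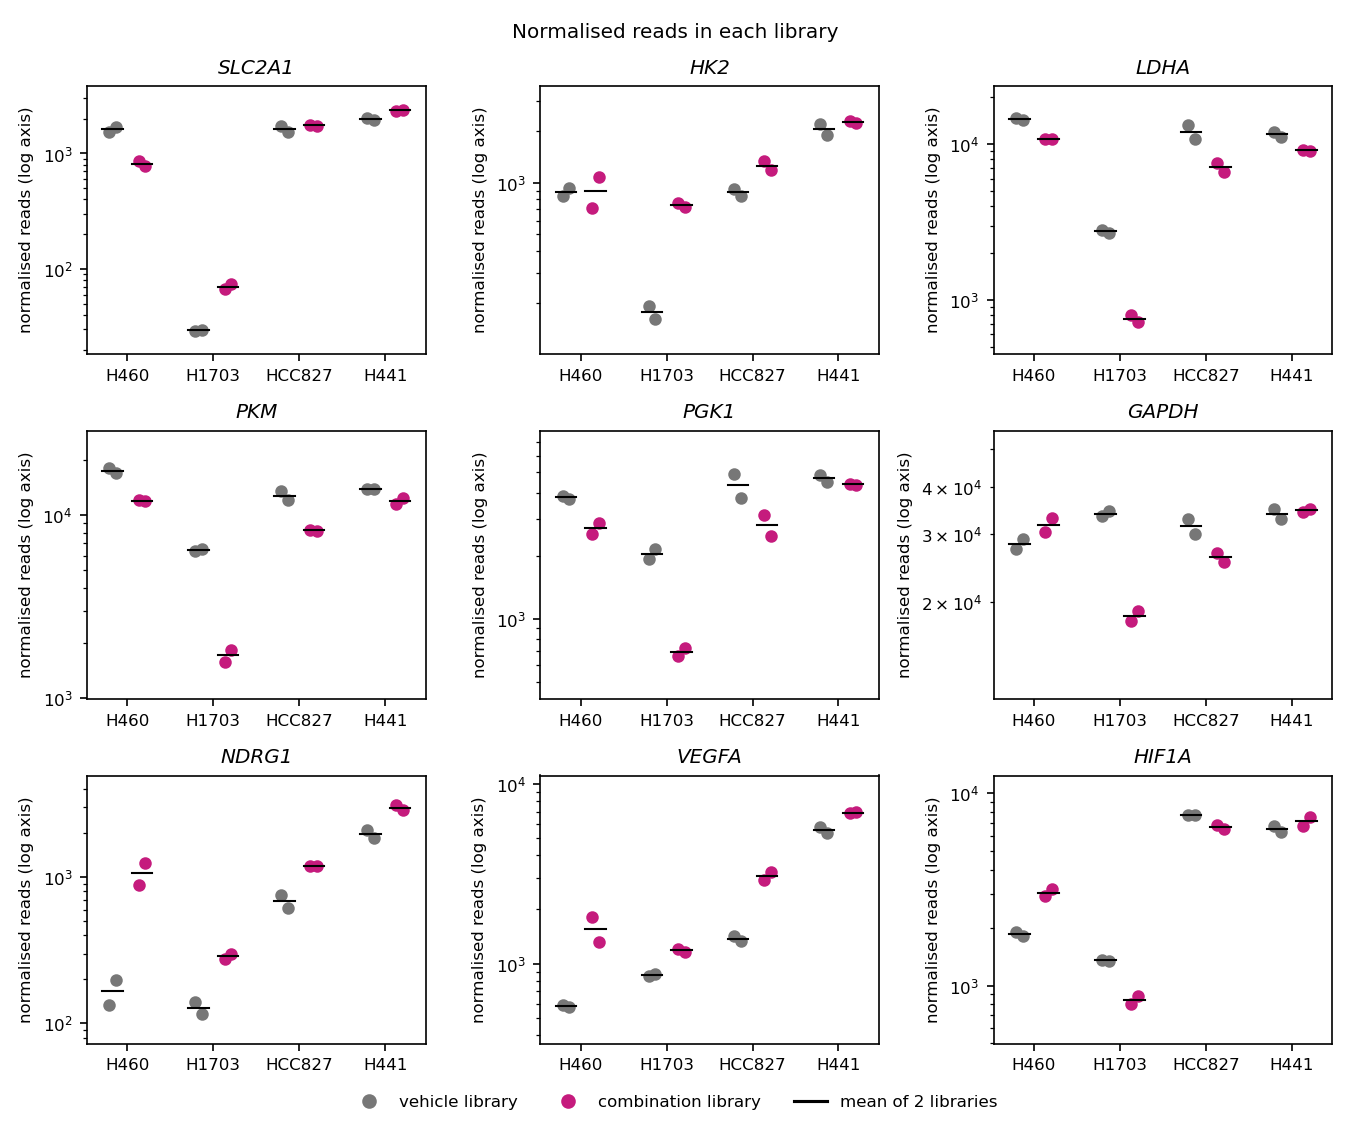
Normalised reads of 9 genes in each of the 16 libraries on log axes, vehicle in grey and combination in pink, with a bar at the mean of 2. For LDHA and PKM both combination libraries lie below both vehicle libraries in every line, SLC2A1 and HIF1A move in opposite directions in H460 and H1703, and HK2 rises most in H1703.

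The genes of glycolytic control and lactate transport differed by line. PFKFB3 and PFKFB4 make fructose 2,6-bisphosphate, the activator of phosphofructokinase. PFKFB3 fell in H460 (-0.41 ± 0.13, adjusted p = 0.0209) and H441 (-0.53 ± 0.13, adjusted p = 0.0193), and PFKFB4 rose in H1703 (1.29 ± 0.28, adjusted p = 0.00115). The PFKFB3 call in H460 did not pass without vehicle replicate 1 (adjusted p = 0.154) or combination replicate 2 (0.146). The one in H441 did not pass without vehicle replicate 1 (0.231) or combination replicate 1 (0.0585) or 2 (0.162). PFKFB3 made up at least 91.0% of the pair in every library.
PDK1, which blocks entry of pyruvate into the TCA cycle, had vehicle levels, in normalised reads, of 224 and 328 in H460, 112 and 116 in H1703, 528 and 456 in HCC827, and 351 and 335 in H441. With the combination PDK1 had 449.7 and 660.2 in H460, 188 and 169 in H1703, 619.9 and 497 in HCC827, and 323 and 352 in H441. The H460 and H1703 groups were apart, and those of HCC827 and H441 overlapped. PDK1 rose in H460 (1.00 ± 0.17, adjusted p = 0.000171) and H1703 (0.64 ± 0.17, adjusted p = 0.00672). The H1703 rise did not pass after median centring (0.40, adjusted p = 0.0967), without the trend and robust steps (0.0505) or without combination replicate 1 (0.0681). The H460 rise did not pass with only that line fitted (0.0804).
SLC16A1 (MCT1) carries lactate in either direction, and SLC16A3 (MCT4) mainly exports it. SLC16A1 had vehicle levels, in normalised reads, of 2219 and 2036 in H460, 1228 and 1405 in H1703, 3610.2 and 3205 in HCC827, and 90.6 and 83.6 in H441. With the combination SLC16A1 had 1741 and 1806 in H460, 768 and 797 in H1703, 3836 and 3521 in HCC827, and 131 and 155 in H441. H441 had by far the least, and its combination libraries were above its vehicle ones, whereas in H460 and H1703 they were below and in HCC827 the groups overlapped. SLC16A1 fell in H1703 (-0.75 ± 0.10, adjusted p = 4.97e-06) and rose in H441 (0.70 ± 0.10, adjusted p = 0.000326), with -0.26 ± 0.10, adjusted p = 0.059 in H460. The H441 rise did not pass with only that line fitted (adjusted p = 0.153). SLC16A3 was the main form in H441, with 91.9 ± 0.11% of the pair in vehicle, and the minor form in H1703, with 1.90 ± 0.36% (2.89% by the length of the longest transcript). Its rise in H1703 (0.44 ± 0.13, adjusted p = 0.0091) did not pass after median centring (0.20, adjusted p = 0.294) or quantile normalisation (0.25, 0.157), by voom (0.49, 0.200), without the trend and robust steps (0.0539), with only that line fitted (0.0814), or without vehicle replicate 2 (0.103) or combination replicate 2 (0.0588).

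**Figure D4:**
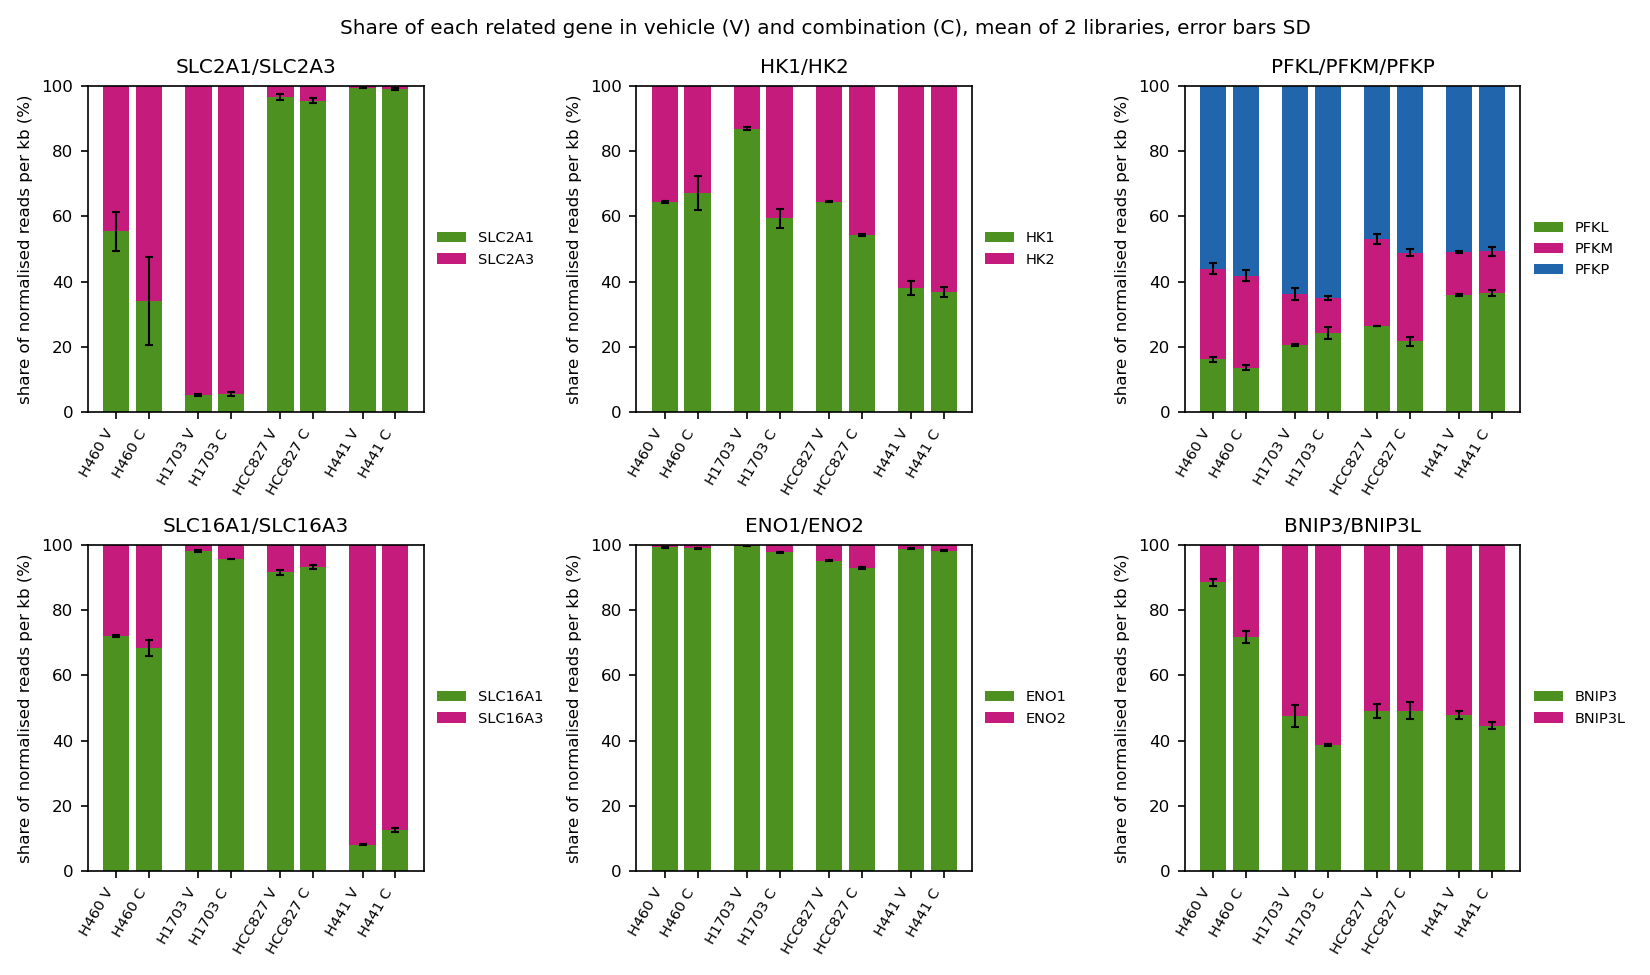
Share of normalised reads per kb of exon held by each gene of 6 related pairs or sets, in vehicle (V) and combination (C), mean of 2 libraries with the SD of each share at its upper edge. SLC2A3 leads in H1703, SLC16A3 leads in H441, and the HK2 share grows in H1703 and HCC827; shares between genes depend on the exon lengths used.

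The 10 other hypoxia targets did not move as a group. In H460, 4 rose and 2 fell (median 0.57), and in H1703, 3 rose and 3 fell (median 0.13). In HCC827, 2 rose and 2 fell (median 0.12), and in H441 1 fell and none rose (median 0.24). Leaving out the gene with both groups at or under 3 reads in a line, these medians were 0.53, 0.25, -0.0011 and 0.31. In H1703, 17.9% of all tested genes rose and 17.6% fell (25.2 and 35.5% of the abundant ones), so the counts there lie near the background.
Of these 10, 3 rose in both H460 and H1703: VEGFA, NDRG1 and BNIP3L. VEGFA had vehicle levels, in normalised reads, of 591 and 574 in H460, 849 and 878 in H1703, 1415 and 1332 in HCC827, and 5747 and 5352 in H441. With the combination VEGFA had 1809 and 1312 in H460, 1209 and 1162 in H1703, 2915 and 3219 in HCC827, and 6855 and 6938 in H441. All 4 lines had both combination libraries above both vehicle ones, with the highest ratios in H460 and HCC827. VEGFA rose in H460 (1.40 ± 0.10, adjusted p = 2.92e-09), H1703 (0.46 ± 0.10, adjusted p = 0.00158) and HCC827 (1.16 ± 0.10, adjusted p = 4.24e-07), with 0.31 ± 0.10, adjusted p = 0.0942 in H441. The H1703 value became 0.21 (adjusted p = 0.137) after median centring.
NDRG1 had vehicle levels, in normalised reads, of 133 and 199 in H460, 139 and 116 in H1703, 756 and 611 in HCC827, and 2107 and 1859.8 in H441. With the combination NDRG1 had 882 and 1246 in H460, 274 and 300.2 in H1703, 1182 and 1198 in HCC827, and 3092 and 2879.6 in H441. Again no line overlapped, and the ratio was largest in H460 and H1703, which had the lowest vehicle levels. NDRG1 rose in H460 (2.67 ± 0.17, adjusted p = 1.01e-09), H1703 (1.16 ± 0.17, adjusted p = 2.38e-05) and HCC827 (0.81 ± 0.17, adjusted p = 0.00441), with 0.59 ± 0.17, adjusted p = 0.0535 in H441. The HCC827 call did not pass without vehicle replicate 2 (adjusted p = 0.0678) or combination replicate 2 (0.0526).
BNIP3 and BNIP3L are mitochondrial receptors for mitophagy. BNIP3L had vehicle levels, in normalised reads, of 303 and 346 in H460, 888 and 765 in H1703, 3066 and 2649 in HCC827, and 2743 and 2644 in H441. With the combination BNIP3L had 648 and 815 in H460, 1019 and 1038 in H1703, 2157 and 2016 in HCC827, and 3169 and 2879 in H441. It was above vehicle in H460 and H1703, below in HCC827 and above by little in H441, with no overlap in any of them. BNIP3L rose in H460 (1.16 ± 0.11, adjusted p = 6.35e-08) and H1703 (0.32 ± 0.11, adjusted p = 0.0257) and fell in HCC827 (-0.45 ± 0.11, adjusted p = 0.00965). The H1703 call was lost after median centring (0.08, adjusted p = 0.688) and without vehicle replicate 2 (0.264), combination replicate 1 (0.0837) or combination replicate 2 (0.105). The HCC827 call was lost without vehicle replicate 1 (0.158) or combination replicate 2 (0.113). BNIP3 itself fell in H460 (-0.43 ± 0.11, adjusted p = 0.00421) and HCC827 (-0.45 ± 0.11, adjusted p = 0.00943), the latter not without vehicle replicate 1 (0.230) or combination replicate 2 (0.202). The BNIP3L share of the pair went from 11.5 ± 1.1 to 28.2 ± 2.0% in H460.
EGLN3 is a HIF prolyl hydroxylase that is itself a HIF target, and ADM encodes the vasodilator peptide adrenomedullin. EGLN3 had vehicle levels, in normalised reads, of 221 and 212 in H460, 13.6 and 11.9 in H1703, 327 and 279 in HCC827, and 265 and 239.8 in H441. With the combination EGLN3 had 107 and 96.9 in H460, 3.27 and 1.58 in H1703, 231 and 187 in HCC827, and 144 and 153 in H441. Both combination libraries were below both vehicle libraries in all 4 lines. EGLN3 fell in H460 (-1.07 ± 0.20, adjusted p = 0.00036), H1703 (-1.71 ± 0.20, adjusted p = 9.50e-07) and H441 (-0.76 ± 0.20, adjusted p = 0.0347), with -0.54 ± 0.20, adjusted p = 0.103 in HCC827. The H441 call did not pass without any 1 of that line's libraries (adjusted p = 0.113 to 0.208) or after median centring (0.0506). ADM had vehicle levels, in normalised reads, of 103 and 84.2 in H460, 31.2 and 18.2 in H1703, 129.7 and 82 in HCC827, and 23.2 and 20.6 in H441. With the combination ADM had 71.4 and 52.5 in H460, 5.45 and 1.58 in H1703, 119 and 89.5 in HCC827, and 39.3 and 28.1 in H441. Both combination libraries were below in H460 and H1703 and above in H441, and the HCC827 groups overlapped. ADM fell in H1703 (-2.26 ± 0.34, adjusted p = 2.64e-05), on few reads, with -0.58 ± 0.34, adjusted p = 0.247 in H460 and 0.55 ± 0.34, adjusted p = 0.46 in H441.
P4HA1, a collagen prolyl hydroxylase, had vehicle levels, in normalised reads, of 1629.7 and 1466 in H460, 569 and 577 in H1703, 1030.1 and 943 in HCC827, and 1327 and 1376 in H441. With the combination P4HA1 had 2131 and 2349 in H460, 401 and 476 in H1703, 1265 and 1066 in HCC827, and 1682 and 1679 in H441. It was above vehicle in H460, HCC827 and H441 and below in H1703, without overlap. P4HA1 rose in H460 (0.53 ± 0.10, adjusted p = 0.000321) and fell in H1703 (-0.39 ± 0.10, adjusted p = 0.0039, or 0.0932 without combination replicate 1).
ANKRD37, a small ankyrin-repeat gene, had vehicle levels, in normalised reads, of 28.4 and 18.9 in H460, 24.3 and 42 in H1703, 43.6 and 38.5 in HCC827, and 85 and 74.9 in H441. With the combination ANKRD37 had 38.7 and 41.1 in H460, 50.1 and 56.7 in H1703, 27.1 and 33.2 in HCC827, and 71.5 and 49.9 in H441. It was above vehicle in both responsive lines and below in both non-responsive lines, and passed in no single line, but passed over the responsive pair (0.70 ± 0.20, adjusted p = 0.00776). That call did not pass after median centring or quantile normalisation (0.49 in both, adjusted p = 0.0638 and 0.0612) or without H1703 vehicle replicate 1 (0.0596). Of the ANKRD37 exon bases, 35.2% overlap UFSP2 on the opposite strand, which had 3105 reads against 735, so reads of the pair may be mixed. CA9 had at most 12.7 normalised reads in any library, and a count of 0 in the vehicle libraries of H460 and HCC827. Its exons overlap those of ARHGEF39 on the opposite strand by 38.5%, with 2560 reads against 46 for CA9. CA12 was abundant only in H460, with 1042 and 1032 normalised reads in vehicle and 757 and 777 with the combination (change -0.43 ± 0.42, adjusted p = 0.512). In H1703 and H441 it had 0 reads, and a count of 3 per group is the floor used here.

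HIF1A mRNA also moved in opposite directions in the responsive lines. HIF1A had vehicle levels, in normalised reads, of 1907 and 1814 in H460, 1351 and 1349 in H1703, 7735 and 7679 in HCC827, and 6761 and 6290.2 in H441. With the combination HIF1A had 2918 and 3167 in H460, 797 and 878 in H1703, 6816 and 6558 in HCC827, and 6768 and 7573 in H441. Both H460 combination libraries were above both vehicle libraries, both H1703 and HCC827 ones were below, and in H441 they were above, with the nearest pair almost level. HIF1A rose in H460 (0.71 ± 0.07, adjusted p = 2.34e-07) and fell in H1703 (-0.69 ± 0.07, adjusted p = 2.33e-07), with -0.21 ± 0.07, adjusted p = 0.0819 in HCC827 and 0.13 ± 0.07, adjusted p = 0.362 in H441. The difference between the responsive lines was 1.40 ± 0.10, adjusted p = 9.11e-09.
SLC2A1, GAPDH, SLC16A1, BNIP3L, P4HA1 and HIF1A each rose in 1 line and fell in another, 6 of the 35 (17.1%), against 4.11% of all tested genes. GAPDH, P4HA1 and HIF1A rose in H460 and fell in H1703 (8.57%, against 1.69% of all), and SLC2A1 did the reverse (2.86%, against 0.738%). These shares were not computed for abundant genes alone, which are called more often. For GAPDH the H460 direction turned under 2 scalings, as given above.

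Glycolytic enzymes and other hypoxia targets, groups that both include HIF targets, moved differently by count. Over the responsive lines, 2 enzymes rose and 11 of 17 fell (median -0.56), and 4 of the 10 other targets rose and 3 fell (median 0.25). All tested genes had a median of 0.10, 20.6% rising and 17.9% falling (38.5% together), and of the abundant genes 28.7% rose and 35.4% fell. Over the non-responsive lines, 1 enzyme rose and 7 fell (median -0.30) and 3 other targets rose and 2 fell (median 0.28), where 6.25% of all genes rose and 6.05% fell (12.3% together). Lists are described here by counts and were not tested against each other. After median centring, 6 of the 35 rose and 20 fell over the responsive lines, in place of 8 and 15, and the share of all calls that rose went from 53.6 to 32.2%.

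The responses of the classes differed for 19 of the 35 genes, 6 higher and 13 lower in the responsive lines, where 11.2 and 12.1% of all tested genes were higher and lower (23.3% together). Each class holds 2 lines, and the p-values of every class comparison here measure spread between libraries, not between lines. Among genes with a mean of at least 100 normalised reads these were 18.4 and 26.2%. The largest differences were in ADM (-1.70 ± 0.34, adjusted p = 0.00102), NDRG1 (1.21 ± 0.17, adjusted p = 3.04e-05), ANKRD37 (1.11 ± 0.28, adjusted p = 0.00608, with the overlap given above), ALDOC (-0.96 ± 0.33, adjusted p = 0.0422) and SLC16A1 (-0.91 ± 0.10, adjusted p = 1.12e-06). In H1703 ADM had 58 reads in vehicle and 7 with the combination, and its change in H460 did not pass. For ALDOC the call was lost without any of 13 of the 16 libraries (largest adjusted p = 0.118, without HCC827 vehicle replicate 1). Of the enzymes, 10 of 17 were lower, among them PGAM1 (-0.90 ± 0.10, adjusted p = 2.03e-06), PKM (-0.80 ± 0.07, adjusted p = 5.19e-08) and TPI1 (-0.79 ± 0.09, adjusted p = 1.0e-06). After median centring 5 of the 35 were higher and 16 lower, and the share of all calls that were higher went from 48.0 to 23.9%.
With H1703 left out, so that H460 alone stood against the non-responsive lines, 12 genes differed, 7 higher and 5 lower, and the lower enzymes numbered 3 (PFKL, PGAM1 and ENO1). LDHA then differed by 0.12 (adjusted p = 0.505), HK2 by -0.33 (0.223), ENO2 by -0.31 (0.342) and GAPDH by 0.28 (0.00522), each against its sign with both lines. With H460 left out, 23 genes differed, 8 higher and 15 lower. These comparisons were chosen after seeing the data. SLC16A1, BNIP3L, ANKRD37 and PGAM1 were among the genes that passed in the same direction whichever 1 of the 4 lines was left out. NDRG1 became 0.46 (adjusted p = 0.121) without H460.
Within the responsive class, H460 and H1703 differed in their response for 23 of the 35 genes, 17 with a higher change in H460 and 6 in H1703, against 11.3 and 7.8% of all genes (19.1% together). The 17 include LDHA (1.44 ± 0.12, adjusted p = 3.21e-08), PKM (1.37 ± 0.10, adjusted p = 6.35e-09) and NDRG1 (1.51 ± 0.24, adjusted p = 0.000159). HK2 was among the 6 (-2.07 ± 0.20, adjusted p = 2.96e-07). HCC827 and H441 differed for 6 genes, 1 higher in HCC827 (VEGFA, 0.84 ± 0.15, adjusted p = 0.00352) and 5 lower, against 0.697 and 1.31% of all genes (2.01% together). Quantile normalisation left 1 call and moved the share of all calls that were higher from 34.7 to 48.5%. Of these 6, VEGFA alone passed without each H441 and HCC827 library in turn, and the count fell to between 1 and 2 without HCC827 vehicle replicate 1, HCC827 combination replicate 2 or any H441 library.

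The setting is given by 4 further lists, whose members were chosen from general knowledge with earlier results of these data known. Of 26 tested further genes of sugar and pyruvate metabolism, 5 rose and 7 fell over the responsive lines (median -0.07). Of all tested genes 20.6% rose and 17.9% fell over those lines, and of the abundant ones 28.7 and 35.4%, so these counts lie near the background. The largest rises over the responsive lines were in HKDC1, a hexokinase-like gene, and PDP1, a phosphatase that activates pyruvate dehydrogenase. HKDC1 rose by 1.45 ± 0.36 in H460, and in H1703 its 2 vehicle reads stood against 30 with the combination (ratio 16.8, counting interval 4.27 to 145). PDP1 rose by 1.48 ± 0.16 in H460 and 1.56 ± 0.16 in H1703, and its changes were 0.08 ± 0.16 and 0.13 ± 0.16 in the non-responsive lines.
Of 16 tested further HIF pathway regulators, 6 rose and 4 fell over the responsive lines (median 0.11), to be read against the same shares. CITED2, which competes with HIF1A for its coactivator, rose by 2.74 ± 0.18 in H460 and 0.67 ± 0.18 in H1703. EPAS1, the HIF-2 alpha subunit, rose by 0.90 ± 0.10 in H460, 2.40 ± 0.10 in H1703 and 0.46 ± 0.10 in HCC827, with -0.33 ± 0.10 (adjusted p = 0.0584) in H441. Of 39 tested further hypoxia targets, 17 rose and 9 fell over the responsive lines (median 0.25), again against 20.6 and 17.9% of all genes. DDIT4, an inhibitor of mTORC1 signalling, rose in all 4 lines, by 1.45 ± 0.12, 1.76 ± 0.12, 1.65 ± 0.12 and 1.12 ± 0.12 in the order H460, H1703, HCC827, H441. STC1, a secreted glycoprotein, rose by 3.49 ± 0.47 in H460 and rested on 2 and 8 reads in H1703 (ratio 4.49, counting interval 0.896 to 43.4).
DDIT4, NDRG1 and VEGFA can also be induced by ATF4 in the integrated stress response. Of 12 genes of that response, 11 rose in H460, 8 rose and 3 fell in H1703, 12 rose in HCC827 and 10 rose in H441, where 14.1, 17.9, 4.42 and 2.77% of all tested genes rose. DDIT3, the pro-apoptotic transcription factor CHOP, rose by 2.16 ± 0.11, 2.76 ± 0.11, 1.97 ± 0.11 and 1.02 ± 0.11, and ATF3 by 3.54 ± 0.17, 2.45 ± 0.17, 0.88 ± 0.17 and 0.88 ± 0.17, in the same order of lines. ASNS, PPP1R15A, SESN2 and TRIB3 also rose in all 4. The part of this response in the changes of the 35 genes was not tested.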

How the data were processed

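Total RNA libraries (SMARTer Stranded Total RNA HI Mammalian kit, per the labels' protocols) of 4 lung cancer lines, 16 in all, were analysed. Per the submitters' processing notes, Trimmomatic, STAR, featureCounts and hg38/GRCh38 were used; versions, annotation release and strand setting are not given in the sources used here. Values deposited by the authors are on a log2 scale, after a variance-stabilising transformation of gene counts. Inverting it gave whole reads for 100% of values (within 0.02 reads) and hence normalised reads, which are reads divided by the library's size factor. Symbols came from GENCODE 29, which holds 28846 of the 28951 IDs.

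One limma fit (3.58.1, R 4.3.3, trend, robust) of 8 group means covered all 23968 genes whose mean lay at least 1 above the lowest value (4983 were removed), with 8 residual degrees of freedom. The fit was also run on simulated data, with the same spread setting for every gene and the same changes in every line. Real spread and responses differ, so that run does not measure the error rate of the calls here. Adjusted p-values are Benjamini-Hochberg over all tested genes. Genes described in full were those called in all 4 lines, in opposite directions, with the 5 largest rises or falls over the responsive lines or class differences, and related pairs. Levels per kb use the union of exons. Counting intervals for low counts are 95% and cover counting error only. Alternatives were median centring, quantile normalisation, other filters, no trend, only the compared lines, a replicate block, voom on recovered reads, each library left out and, added after seeing the data, each line left out. The members and lists were chosen with earlier results of these data known. Promoters are RefSeq, GRCh38.p14. A result for 1 gene of the further hypoxia targets is not reported here.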

Additional observations from a re-analysis of the deposited data

Results flagged for a closer look

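The test of the difference between the responses of the 2 classes (limma, adjusted p under 0.05) picked out 19 of the 35 genes. Values are responsive minus non-responsive on the log2 scale. The mean response over the responsive lines was higher for HK2 (0.71), ENO2 (0.51), PDK1 (0.74), NDRG1 (1.21), BNIP3L (0.88) and ANKRD37 (1.11). It was lower for GPI (-0.61), PFKM (-0.42), ALDOC (-0.96), TPI1 (-0.79), GAPDH (-0.24), PGK1 (-0.66), PGAM1 (-0.90), ENO1 (-0.59), PKM (-0.80), LDHA (-0.60), SLC16A1 (-0.91), ADM (-1.70) and EGLN3 (-0.75). The differences of HK2, ENO2, GAPDH and LDHA changed sign with H1703 left out, as given above.

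The same test between H460 and H1703 picked out 23 genes, with values as H460 minus H1703. The change was higher in H460 for GPI (0.61), PFKM (0.46), ALDOC (1.41), TPI1 (1.04), GAPDH (1.05), PGK1 (1.06), PGAM1 (0.82), ENO1 (0.70), PKM (1.37), LDHA (1.44), SLC16A1 (0.49), VEGFA (0.94), ADM (1.68), NDRG1 (1.51), BNIP3L (0.84), P4HA1 (0.92) and HIF1A (1.40). It was higher in H1703 for SLC2A1 (-2.16), HK2 (-2.07), PFKL (-0.57), ENO2 (-1.63), PFKFB3 (-0.59) and PFKFB4 (-1.90).

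Between HCC827 and H441, 6 genes differed, as HCC827 minus H441: VEGFA (0.84) was higher in HCC827, and GAPDH (-0.30), ENO1 (-0.38), PKM (-0.41), SLC16A1 (-0.58) and BNIP3L (-0.62) were lower.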

How the results depend on the processing

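Median centring moved the enzyme medians to -0.62 in H460 and -1.13 in H1703, turned GAPDH in H460 to -0.029 (-0.026 after quantile normalisation), gave HIF1A -0.21 over the responsive lines (adjusted p = 0.00883), and left 2 calls between HCC827 and H441. Quantile normalisation gave 7 calls in H441 and 1 between HCC827 and H441, where ENO1 became 0.00426. Without the trend and robust steps limma called 5 members in HCC827, 1 in H441, 9 over the non-responsive lines and 0 between HCC827 and H441 (9 at an unadjusted p under 0.05, and 7 by voom). With only the line compared, limma called 0 in H441 (14 at an unadjusted p under 0.05), and voom called 10. With H1703 left out of its class, 12 class differences passed, and HK2 became -0.33, GAPDH 0.28, ENO2 -0.31 and LDHA 0.12. With H460 left out, SLC2A1 became 1.00 and HIF1A -0.65. Voom on the recovered reads called 7021 of all genes in H460 (6398 by limma), 9570 in H1703 (8500 by limma), 2792 in HCC827 (2378 by limma) and 1504 in H441 (1110 by limma). The cause of these moves was not tested. Leaving out 1 library gave 18 to 20 calls in H460, 23 to 26 in H1703, 7 to 14 in HCC827, 1 to 7 in H441, 17 to 21 class differences and 1 to 9 differences between HCC827 and H441. The enzyme median then ran from -1.17 to -0.85 in H1703. Same-numbered libraries did not deviate together over all tested genes (28 pairs, r from -0.02 to 0.03). This gave no sign that the numbers pair the samples, but a pairing that touches few genes would not show. With the replicate block there were 20 calls in H460, 26 in H1703, 14 in HCC827, 5 in H441, 20 class differences, 23 differences between H460 and H1703 and 6 between HCC827 and H441. Of the 140 results for a gene in a line, 137 kept their direction and side of the threshold under the block, 126 under median centring, 129 under quantile normalisation and 125 under voom. Shares of related genes per kb moved by more than their SD in 104 of 168 cases when the longest transcript replaced the union of exons. Without the trend and robust steps, calls also ended for PFKL (adjusted p = 0.0501), GAPDH (0.283), PFKFB3 (0.116) and BNIP3 (0.0638) in H460, BNIP3L (0.125) in H1703, HK2 (0.156), ALDOC (0.134), GAPDH (0.165), NDRG1 (0.0701), BNIP3 (0.124) and BNIP3L (0.113) in HCC827, and LDHA (0.224), PFKFB3 (0.167) and EGLN3 (0.0871) in H441. With only that line fitted they also ended for GAPDH (0.191) and PFKFB3 (0.0736) in H460, ALDOA (0.121) and BNIP3L (0.0563) in H1703, ALDOC (0.111), GAPDH (0.0635) and BNIP3 (0.172) in HCC827, and LDHA (0.130), PFKFB3 (0.219) and EGLN3 (0.0947) in H441. With 2 libraries per group, low genes such as CA9, ADM in H1703 and ALDOC in H1703 rest on few reads.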
